A study of Bos taurus with 37 samples.

Results

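The 10 enzymes followed here carry glucose down to lactate, and their mRNAs were read in single bovine blastocysts: HK2, GPI, PFKP, ALDOA, TPI1, GAPDH, PGAM1, ENO1, LDHA and LDHB. They were taken by symbol from the table of FPKM, a level scaled to transcript length and to the mapped fragments of the library, in which each of these 10 symbols has 1 of the 22628 rows. Poly-A RNA of 35 single blastocysts was read by RNA-seq, together with 1 library each of the male and the female donor fibroblasts, to compare embryos of different origin and sex. There were 6 male and 6 female IVF blastocysts (IVF-BLs), 6 male and 6 female SCNT blastocysts (SCNT-BLs), and 6 male and 5 female sham nuclear transfer blastocysts (sham NT-BLs). IVF-BLs came from oocytes fertilized in vitro. SCNT-BLs came from enucleated oocytes fused with a cultured ear skin fibroblast of an adult animal, male or female, so that the SCNT-BLs of 1 sex share their donor population. Sham NT-BLs were IVF zygotes that lost the polar body and some ooplasm to a pipette and were then activated with ionomycin and 6-dimethyl-aminopurine, while both pronuclei stayed in place. All embryos were grown in vitro to the blastocyst stage and graded by Hoechst staining. A replicate is 1 blastocyst, a different embryo each time, whereas a donor value has no replicate error.

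Glycolysis turns glucose into pyruvate in the cytosol and yields ATP and precursors for biosynthesis. Hexokinases trap glucose as glucose 6-phosphate, GPI makes fructose 6-phosphate of it, phosphofructokinase commits it to the pathway, and aldolase and TPI1 give the triose phosphates that GAPDH, PGAM1 and ENO1 carry on toward pyruvate. Lactate dehydrogenase is a tetramer of LDHA and LDHB subunits, and the A subunit is the one usually linked with the making of lactate. Mammalian embryos take up more glucose and release more lactate as they become blastocysts.

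The deposited values are already scaled by length and by mapped fragments, and levels of different genes are set side by side here on that basis. This scaling does not take out differences between genes in the amplification by PCR, and their part was not tested. Summed FPKM ran from 414105 to 601000 over the 37 libraries, and 9616 to 11132 genes were above 1 FPKM in a blastocyst. Trophectoderm markers summed to between 1809 and 8655 FPKM in the blastocysts and to 19.5 and 38.5 FPKM in the male and female fibroblasts. The mean correlation of a blastocyst with the others of its group (log2 scale) ran from 0.858 to 0.921, and female SCNT-BL replicate 6 had the lowest. Female SCNT-BL replicates 6 and 5 stood lowest in their group, and values without these 2 libraries, a choice made after seeing the data, are given where a call changes. By the methods, male and female libraries went on separate flow cells, so a sex difference and a flow cell difference cannot be told apart, while origins of 1 sex shared a flow cell. The submitters' mapping table also lists a lower share of mapped reads for most male sham NT-BLs than for other libraries. A blastocyst is a mixture of cell types, and in such bulk samples fewer cells of a type and less RNA per cell cannot be told apart.

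GPI and GAPDH had the highest levels of the 10 mRNAs in the embryos, and PFKP the lowest. GPI, the isomerase, averaged from 1026 FPKM in female SCNT-BLs to 1662 FPKM in male sham NT-BLs, with a coefficient of variation of 5.81% to 26.2% within groups. GAPDH, the dehydrogenase of the middle of the pathway, averaged from 703 FPKM in male SCNT-BLs to 1416 FPKM in female IVF-BLs. ALDOA, the aldolase of muscle and most growing cells, followed with group means of 171 to 260.4 FPKM, and PGAM1, a phosphoglycerate mutase, with 102 to 156 FPKM. HK2, LDHA, LDHB and ENO1 formed a lower layer, with group means between 12.5 and 57.1 FPKM. The coefficient of variation of LDHA within groups ran from 34.4% to 100% (n = 5 or 6), so that single embryos of 1 group differed far more in LDHA than in GPI.

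PFKP, the platelet type of phosphofructokinase, was at most 7.66 FPKM in any embryo and is listed at 0 in male IVF-BL replicates 1 and 6 and male SCNT-BL replicate 1. Male IVF-BLs 2 to 5 had 0.0472, 1.79, 4.49 and 0.223 FPKM of PFKP, and male SCNT-BLs 2 to 6 had 0.226, 0.488, 0.877, 1.48 and 0.0540 FPKM. The liver type, PFKL, was the prevailing phosphofructokinase mRNA instead, with 88.3% to 99.9% of the summed FPKM of PFKL, PFKM and PFKP in every blastocyst. TPI1, the triose phosphate isomerase, was also low and uneven, and is listed at 0 in male IVF-BL replicate 6 and female sham NT-BL replicate 1. Its male IVF-BLs 1 to 5 had 4.35, 13.2, 32.7, 23.7 and 25 FPKM, a spread that nearly covers the male SCNT-BLs (4.37 to 46.2 FPKM) and the male sham NT-BLs (1.29 to 29.8 FPKM). Low values such as those of PFKP and TPI1 rest on few fragments.

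At the mutase and enolase steps 1 isozyme held most of the mRNA in most embryos, whereas hexokinase mRNA was shared. PGAM1 had at least 94.4% of the summed FPKM of PGAM1 and PGAM2 in every blastocyst. ENO1 held a median of 85.5% to 97.7% of the enolase mRNA in the groups, with the muscle type ENO3 as high as 48.8% in 1 male sham NT-BL and 43.8% in 1 male IVF-BL. Hexokinase mRNA was divided among HK2, HK1 and HKDC1: HK2 made up a median of 46.0% in male IVF-BLs, 60.8% in male SCNT-BLs, 47.4% in female IVF-BLs and 55.3% in female SCNT-BLs. HKDC1, a hexokinase-like enzyme of epithelia, reached 46.9% in a male IVF-BL. GAPDH, ENO1, LDHA, LDHB, TPI1 and PGAM1 have processed pseudogenes in mammalian genomes, and reads shared with such copies may have been split between them.

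**Figure D1:**
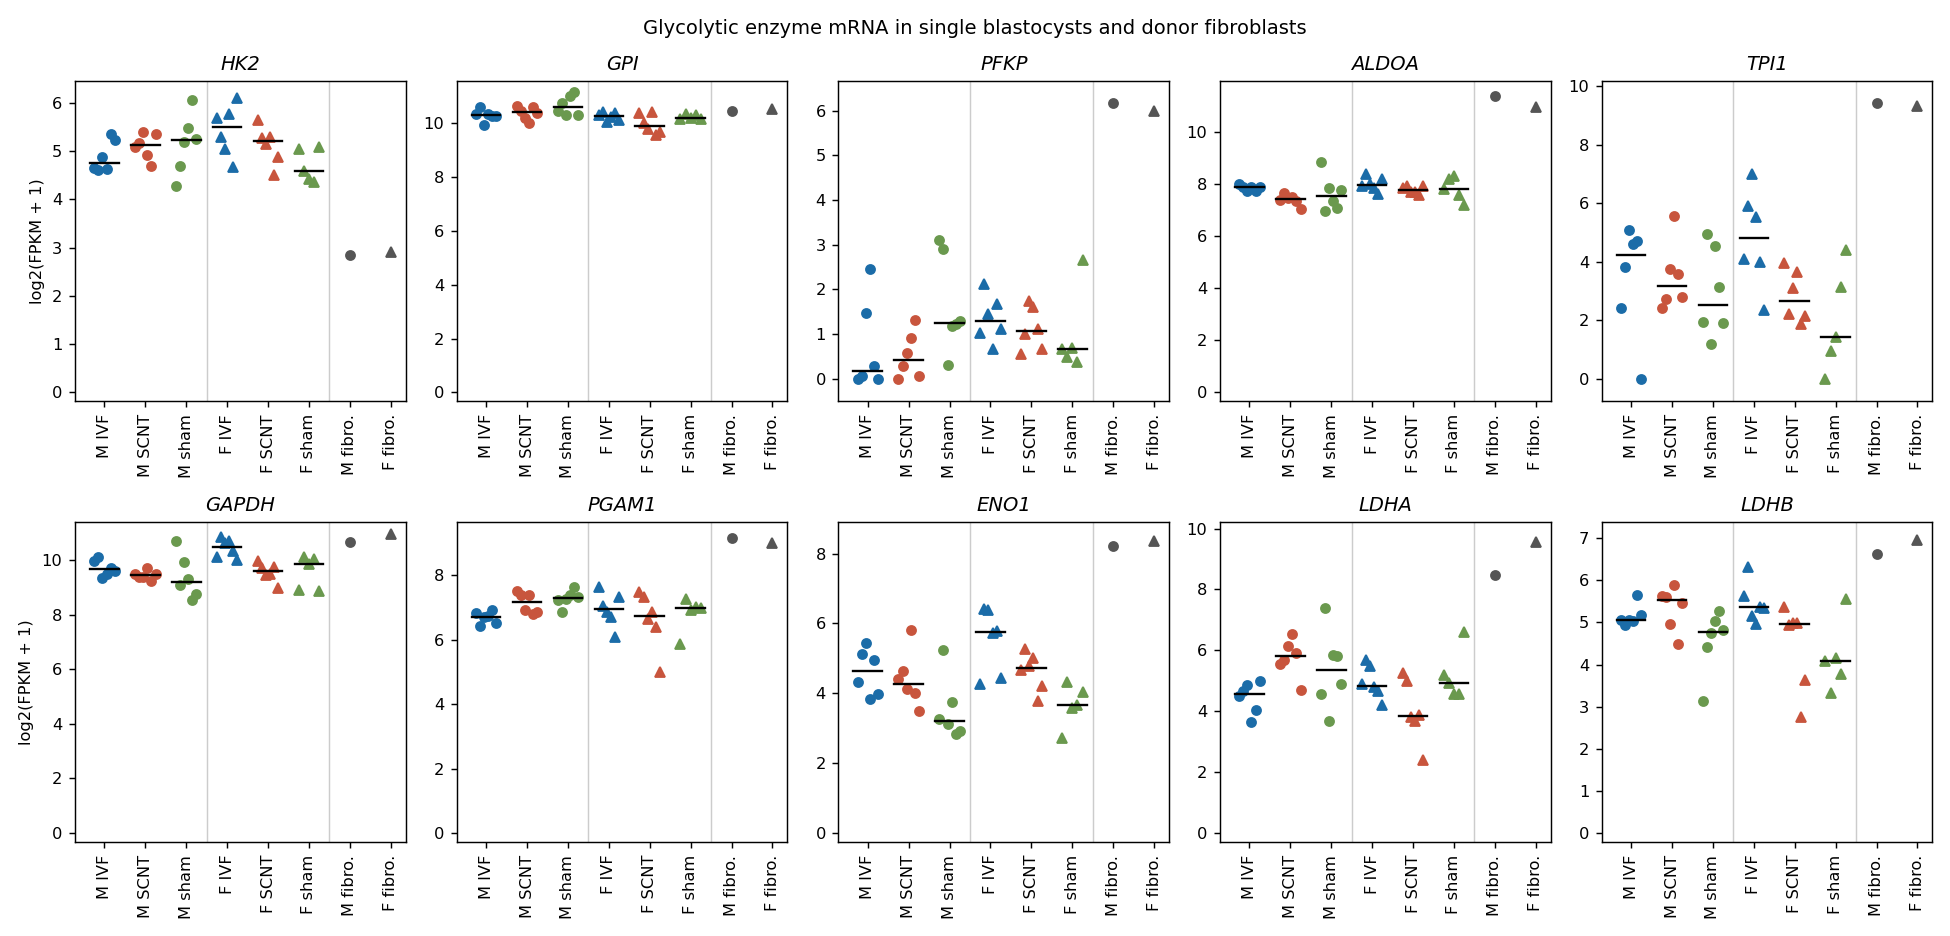
FPKM of the 10 enzymes on a scale of log2(FPKM + 1) in each library, male (M, circles) and female (F, triangles), with IVF-BLs in blue, SCNT-BLs in red, sham NT-BLs in green, fibroblasts in grey and a bar at each group median; each panel has its own scale. LDHA of male SCNT-BLs lies at 25 to 91.7 FPKM against 11.4 to 31.2 FPKM for IVF-BLs of that sex, and fibroblasts lie apart from the embryos in most panels.

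Nuclear transfer was then compared with fertilization within each sex, the comparison that asks whether a reprogrammed donor genome gives the enzyme mRNAs of a fertilized embryo. Differences are in log2(FPKM + 1), which understates the change of low genes, and a gene is called when its Benjamini-Hochberg adjusted p from limma over all genes tested is below 0.05. In males, LDHA rose and none of the other 9 enzymes passed the test, so 1 of 10 was called where 6.98% of all 14906 genes were, and 3.34% were called higher. Male IVF-BLs had 11.4 to 31.2 FPKM of LDHA (median 23.0), and male SCNT-BLs 25 to 91.7 FPKM (median 55.2). Only the lowest SCNT-BL, replicate 6, lay within the range of the IVF-BLs. The difference was 1.31 (SE 0.30, 95% interval 0.68 to 1.94, adjusted p = 0.0154, limma, n = 6 and 6). It stayed called without any 1 of the 12 embryos, with an adjusted p of at most 0.0361, but not when all 3 origins shared a fit (adjusted p = 0.0995).

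ALDOA and PGAM1 came next in male SCNT-BLs, on opposite sides. Male IVF-BLs had 214 to 258 FPKM of ALDOA (median 236), and male SCNT-BLs 133 to 201 FPKM (median 172). Every SCNT-BL was thus below every IVF-BL, which 2.33% of all genes also showed, and ALDOA was the only one of the 10 enzymes with such a gap in this comparison. Its difference of -0.46 (SE 0.13) had an adjusted p of 0.0508 in limma, just outside the threshold, and was called with a filter at 1 FPKM (adjusted p = 0.0406), with no filter (0.0391) and without male SCNT-BL replicate 2 (0.0392). PGAM1 was at 84.5 to 120.4 FPKM in male IVF-BLs (median 103) and 109.6 to 181 FPKM in male SCNT-BLs (median 143), a difference of 0.46 (SE 0.17, adjusted p = 0.116, limma). For HK2, GPI, PFKP, TPI1, GAPDH, ENO1 and LDHB the differences lay between -0.26 and 0.20, all with intervals that include 0. The median difference of the 10 was 0.06, beside -0.01 for all genes.

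In females all 10 enzymes had lower mean log2 values in SCNT-BLs than in IVF-BLs, and none was called. Few genes were called at all in this comparison (49 of 15256, or 0.321%). At an unadjusted p under 0.05 there were 5 of 10 enzymes, all lower, beside 10.9% of all genes at that level and 5.98% lower. All 10 negative signs stand beside 53.9% of all genes, and the median of the 10 differences was -0.61 beside -0.04 for all genes. GAPDH had 1038 to 1843 FPKM in female IVF-BLs (median 1424) and 499 to 992 FPKM in female SCNT-BLs (median 774). It was the only enzyme of the 10 whose female SCNT-BLs all lay below the IVF-BLs, as did 0.531% of all genes, with a difference of -0.89 (SE 0.26, 95% interval -1.43 to -0.35, adjusted p = 0.179, limma).

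TPI1 of female IVF-BLs ran from 4.09 to 128 FPKM (median 30.8) and that of female SCNT-BLs from 2.68 to 14.6 FPKM (median 5.60). The ranges overlap at their low ends, and the difference of -1.99 (SE 0.63) had an adjusted p of 0.218 in limma. LDHB, LDHA and ENO1 differed by -1.02, -0.96 and -0.88 with adjusted p of 0.352, 0.397 and 0.402 in limma. PGAM1, HK2, GPI, ALDOA and PFKP lay between -0.33 and -0.22, with intervals that include 0. Without female SCNT-BL replicates 5 and 6, again none was called, and 2 of 10 were at an unadjusted p under 0.05, beside 11.1% of all genes. Then 9 of 10 differences were negative, as were 51.6% over all genes, and their median was -0.31, beside -0.02 for all genes. These replicates also had the lowest relative depth of their group, 0.371 and 0.511 against 0.940 to 1.17 in the other 4 (read from the spacing of low values and set to 1 in male IVF-BL replicate 1), with 10310 and 10225 genes at 0 against at most 8441. The part of depth in the female differences was not tested.

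The summed level of the 10 enzymes was 2766 to 3996 FPKM in female IVF-BLs, 1650.2 to 2885 FPKM in female SCNT-BLs and 1988 to 2920.3 FPKM in female sham NT-BLs, so that the ranges overlap. GAPDH and GPI made up most of this sum, with medians of 44.3% and 38.0% in female IVF-BLs. The same medians were 34.4% and 45.0% in female SCNT-BLs and 35.1% and 46.5% in female sham NT-BLs. The enzymes made up 0.645% to 0.872% of the summed FPKM of a female IVF-BL, 0.343% to 0.627% of a female SCNT-BL and 0.386% to 0.544% of a female sham NT-BL. Every female IVF-BL was thus above every other female blastocyst in this share, which mostly follows GAPDH and GPI and does not measure the 10 as a set. Its denominator also differed: summed FPKM was 414105 to 489827 in female IVF-BLs, 430224 to 514820 in SCNT-BLs and 507831 to 554711 in sham NT-BLs. In males the same share was 0.425% to 0.618% in IVF-BLs, 0.455% to 0.530% in SCNT-BLs and 0.417% to 0.722% in sham NT-BLs, so these groups overlapped.

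LDHA was the 1 enzyme called for a difference between male and female embryos in the response to nuclear transfer. All SCNT-BLs of 1 sex share a donor population, so sex and donor cannot be told apart in this difference. The female difference between SCNT-BLs and IVF-BLs minus the male one was -2.27 (SE 0.54, 95% interval -3.37 to -1.17, adjusted p = 0.0285, limma), while 1.91% of all 15425 genes were called, 0.849% with a negative value. LDHA of female IVF-BLs was 17.6 to 50.1 FPKM (median 27.7) and of female SCNT-BLs 4.29 to 36.9 FPKM (median 13.3), where female SCNT-BL replicate 6 was the lowest of all embryos. The call was lost without female SCNT-BL replicates 5 and 6 (-1.84, adjusted p = 0.0631), without female IVF-BL replicate 3 (adjusted p = 0.0517) and when all origins shared a fit (adjusted p = 0.0629). LDHB and GAPDH had differences between the sexes of -1.20 and -0.63 with adjusted p of 0.221 and 0.263 in limma, and ALDOA alone of the 10 had a positive one, 0.23. That of TPI1 ran from -2.66 to -1.62 over the settings other than leaving out 1 embryo (adjusted p of 0.212 to 0.584, limma). At an unadjusted p under 0.05 were 3 of 10, all negative, beside 15.2% of all genes and 7.79% lower. Without female SCNT-BL replicates 5 and 6 it was 2 of 10, beside 13.1% of all genes.

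Markers of other cells were read beside these values. The summed FPKM of 9 fibroblast markers (COL1A1, COL1A2, COL3A1, DCN, LUM, THY1, PRRX1, VIM and POSTN) was 5.99 to 9.46 in male IVF-BLs and 2.56 to 7.08 in male SCNT-BLs, where VIM is listed at 0 in 4 of 6 and COL3A1 in 5 of 6 embryos. Of 10 fibroblast markers (these and FN1, which embryos also express), 6 could be tested and none was called. The sum of 5 cumulus markers was 2.64 to 20.6 FPKM in IVF-BLs and 8.72 to 36.7 FPKM in SCNT-BLs of males, with PTX3 at 0 in all 12. None of the 3 that could be tested was called, but all 3 were higher, with a median of 0.90 beside -0.01 for all genes. At an unadjusted p under 0.05 there was 1, beside 9.98% of all genes higher. Medians in IVF-BLs and SCNT-BLs were 6.40 and 10.5 FPKM for CYP19A1, 3.69 and 11.7 for FSHR and 0.0192 and 0.635 for HAS2. CYP19A1 and FSHR were above 0 in all embryos of both groups. The part of these cells in the LDHA difference was not tested. Among 11 trophectoderm markers, GATA3 rose and GATA2 and TEAD4 fell in male SCNT-BLs, of 5 primitive endoderm markers tested GATA6 rose, and none of 6 markers of the inner cell mass and epiblast was called. The share of all genes called there was 6.98%. The GATA3 call was kept in 5 of 12 fits that leave out 1 embryo and lost with no filter (adjusted p = 0.0512, limma) and with a fit shared by all origins (0.102), and that of GATA2 was kept in 10 of 12. In female SCNT-BLs no marker of any of these lists was called, where only 0.321% of all genes were. At an unadjusted p under 0.05, 2 of 11 trophectoderm markers and 1 of 6 of the inner cell mass and epiblast were lower there. No other marker tested was at that level, beside 10.9% of all genes and 5.98% lower.

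**Figure D2:**
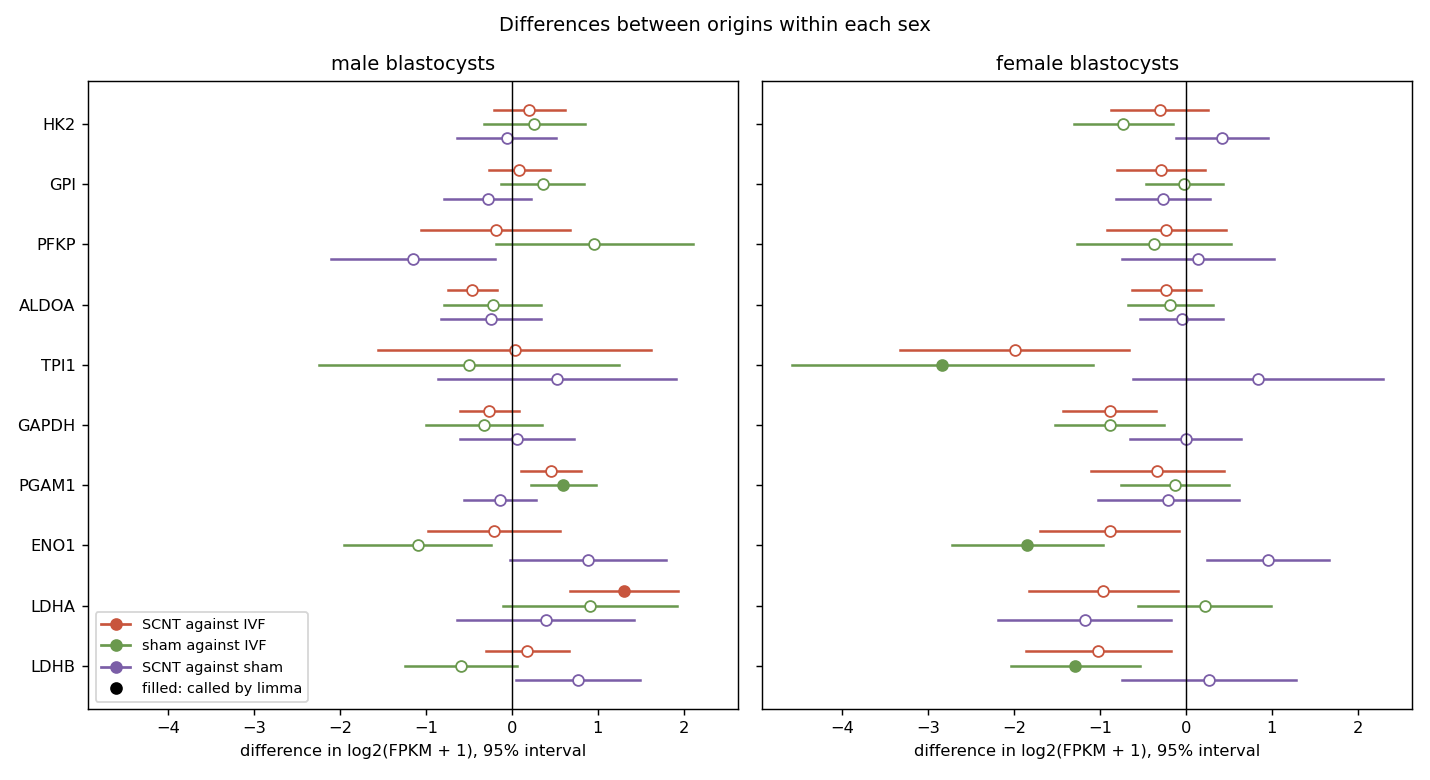
Difference in log2(FPKM + 1) between origins for each enzyme, male embryos on the left and female on the right, with the 95% interval from limma as a line and a filled point where the gene was called. LDHA of male SCNT-BLs is 1.31 above IVF-BLs, ENO1 of female sham NT-BLs is 1.84 below (drawn at -1.84), and the red points of all 10 enzymes lie left of 0 in females.

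Sham NT-BLs went through the manipulation and activation with their own genome, and were compared with IVF-BLs, which had neither. In females 3 of 10 enzymes fell and none rose, beside 13.5% of 15259 genes called in all and 6.47% called lower. ENO1, the enolase, changed most reliably: female IVF-BLs ran from 18.3 to 83.7 FPKM (median 53.3), and the 5 sham NT-BLs had 5.53, 18.9, 11, 11.6 and 15.5 FPKM. Only the highest sham NT-BL reached the lowest IVF-BL. ENO1 fell by 1.84 (SE 0.41, adjusted p = 0.00813, limma, n = 5 and 6) and stayed called without any 1 of the 11 embryos.

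LDHB, the heart type subunit of lactate dehydrogenase, had 30.2 to 79.1 FPKM in female IVF-BLs (median 40.0) and 15.9, 9.08, 16.8, 12.6 and 45.9 FPKM in the sham NT-BLs. Of the sham NT-BLs 4 lay below all IVF-BLs, and replicate 5 lay among them. LDHB fell by 1.29 (SE 0.35, adjusted p = 0.0244, limma), a call that was kept in 7 of 11 fits that leave out 1 embryo and lost when all origins shared a fit (adjusted p = 0.0544). It was lost without female IVF-BL replicate 2 or any 1 of female sham NT-BL replicates 2, 3 and 4, with an adjusted p of at most 0.0684.

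TPI1 of the female sham NT-BLs was listed at 0 in replicate 1 and was 0.927, 1.69, 7.84 and 20.4 FPKM in the others, against 4.09 to 128 FPKM in the IVF-BLs. Its difference of -2.83 (SE 0.82, adjusted p = 0.0325, limma) was the largest of the 10 and the least steady of the 3 calls. It was kept in 5 of 11 fits that leave out 1 embryo and lost without any 1 of IVF-BL replicates 2, 3 and 4 or sham NT-BL replicates 1, 2 and 3 (adjusted p of 0.0618 to 0.0816), and with no filter on low genes (0.0781). GAPDH had 477, 1099, 918, 1058 and 465 FPKM in the female sham NT-BLs, with a difference from IVF-BLs of -0.89 (SE 0.30, adjusted p = 0.0613, limma) that was called with a filter at 1 FPKM (0.0360) and with a fit shared by all origins (0.0450). HK2 differed by -0.73 (adjusted p = 0.0900, limma), while GPI, ALDOA, PGAM1, PFKP and LDHA lay between -0.37 and 0.22. The median of the 10 was -0.55, beside -0.09 for all genes.

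In males PGAM1 rose in sham NT-BLs and the other 9 did not pass, 1 of 10 beside 12.1% of all 14902 genes called and 6.13% called higher. Against 84.5 to 120.4 FPKM in the IVF-BLs, male sham NT-BLs had 114 to 197 FPKM of PGAM1 (median 156), and of these replicate 2 alone lay within the IVF-BLs. The difference was 0.60 (SE 0.18, adjusted p = 0.0359, limma). It was kept in 4 of 12 fits that leave out 1 embryo, and the adjusted p reached 0.0866 without male IVF-BL replicate 2. The other 7 lost calls were without male IVF-BL replicates 1, 3, 4 or 6 or sham NT-BL replicates 4, 5 or 6, each with an adjusted p of at least 0.0508.

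ENO1 of male sham NT-BLs ran from 6.18 to 36.6 FPKM (median 8.16), against 13.4 to 42.7 FPKM in IVF-BLs (median 24.6). Of the 6 sham NT-BLs, 5 were below all IVF-BLs and replicate 2 was among the highest. The difference of -1.09 (SE 0.40) had an adjusted p of 0.0936 in limma with all embryos and of 0.0102 without sham NT-BL replicate 2. LDHA differed by 0.91 and PFKP by 0.96 with intervals that include 0. No enzyme differed between the sexes in its response to the sham procedure by limma, where 1.22% of all 15375 genes were called; 2 of 10, HK2 and PGAM1, were at an unadjusted p under 0.05, both more negative in females, beside 12.2% of all genes at that level.

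The 6 markers of the inner cell mass and epiblast summed to 28.5 to 88.6 FPKM in male sham NT-BLs and 100 to 140.0 FPKM in male IVF-BLs, and to 53.0 to 81.9 against 92.2 to 190.4 FPKM in females. POU5F1, the pluripotency factor, fell by 1.69 in male and by 1.97 in female sham NT-BLs, and of the 6 it was called with DPPA4 in males and alone in females. Over all genes, 12.1% were called in male and 13.5% in female sham NT-BLs against IVF-BLs. LIN28B was not lower, with medians of 5.53 FPKM in male sham NT-BLs against 1.10 FPKM in IVF-BLs and 4.32 against 3.85 FPKM in females. The summed primitive endoderm markers overlapped, at 104 to 329 FPKM against 140 to 301 FPKM in IVF-BLs in females and 87.5 to 274 against 107 to 246 FPKM in males. Of 4 tested in females GATA6 fell and 2 had positive differences, and of 5 tested in males GATA4 fell and 1 was positive. Of the 11 trophectoderm markers, TEAD4, IFNT and IFNT2 fell in females and TFAP2C in males. Each of these calls was kept without any 1 embryo, except TEAD4 (10 of 11 fits). No fibroblast, cumulus or blood marker was called in either sex. The part of these cell types in the values of ENO1, LDHB, TPI1 and PGAM1 was not tested. Relative depth was 0.426 to 0.818 in female sham NT-BLs and 0.865 to 1.44 in female IVF-BLs, and 0.532 to 0.807 in male sham NT-BLs and 0.774 to 1 in male IVF-BLs, and its part in these values, PGAM1 included, was not tested either.

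The comparison of SCNT-BLs with sham NT-BLs sets a donor genome against a fertilized genome after handling that was shared in part. Sham zygotes were fertilized before activation and kept their pronuclei, and the methods describe no fusion with a cell for them. No enzyme was called by limma in either sex, where 11.8% of 14783 genes in males and 11.3% of 15116 in females were, and in each sex 1 enzyme was higher and 1 lower at an unadjusted p under 0.05. That is 2 of 10, no more than the 24.9% of all genes in males and 25.2% in females at that level. In males these were LDHB, at 0.77 (adjusted p = 0.166, limma), and PFKP, at -1.15 (adjusted p = 0.116, limma). In females they were ENO1, at 0.96 (adjusted p = 0.0784, limma), and LDHA, at -1.18 (adjusted p = 0.131, limma). ENO1 of female SCNT-BLs was at 12.8 to 37.5 FPKM (median 25.5), and the difference from sham NT-BLs was called without SCNT-BL replicate 5 (adjusted p = 0.0392, limma) and without replicates 5 and 6 (adjusted p = 0.0199). In males ENO1 differed by 0.89 (adjusted p = 0.210, limma), and was called without sham NT-BL replicate 2 (adjusted p = 0.0401). These comparisons share their embryos with those above, so they are no separate evidence on ENO1 or LDHA.

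The balance of the lactate dehydrogenase subunits was described by a ratio, without a test. The ratio of LDHA to LDHB FPKM within a library was 0.310 to 0.882 in male IVF-BLs (median 0.743), and none of the 6 was above 1. In male SCNT-BLs it was 0.579 to 2.77 (median 1.33, above 1 in 4 of 6) and in male sham NT-BLs 0.454 to 8.17 (median 1.61, above 1 in 5 of 6). Female IVF-BLs had 0.444 to 1.28 (median 0.619, above 1 in 1 of 6) and female SCNT-BLs 0.377 to 2.37 (median 0.667, above 1 in 2 of 6). The 5 female sham NT-BLs had 2.22, 3.28, 1.36, 1.82 and 2.08, all above every female IVF-BL. In fibroblasts the ratio was 3.60 (male) and 6.11 (female). The male ranges overlap, as do those of female SCNT-BLs and IVF-BLs. In female sham NT-BLs LDHB fell, while the difference of LDHA was 0.22.

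**Figure D3:**
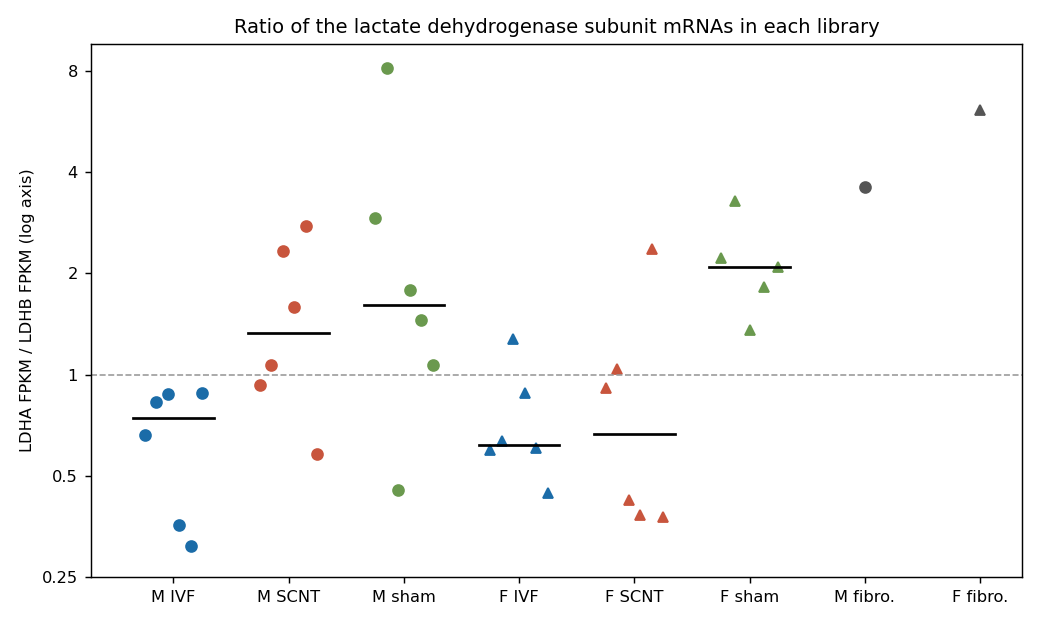
Ratio of LDHA FPKM to LDHB FPKM in each library on a log axis, male as circles and female as triangles, with a bar at each group median and a dashed line at 1. All 6 male IVF-BLs lie below 1 and all 5 female sham NT-BLs lie above it.

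Donor fibroblasts carried far more mRNA of most enzymes than the embryos made from them. Each fibroblast value is 1 library, so a fold has no replicate error and no test. In males the donor library was above every SCNT-BL for 8 of 10 enzymes, below every one for HK2 and within them for GPI; 36.9% of all genes were above and 23.3% below. In females it was above for 9 and below for HK2, beside 36.5% and 22.8% of all genes. The median ratio of fibroblast to mean SCNT-BL over the 10 was 5.10 in males and 7.13 in females, beside 0.895 and 0.872 for all genes above 1 FPKM in the embryos. That cut is on the denominator of the ratio and was not applied to the 10, so these medians are not fully alike. PFKP, at a mean of 0.521 FPKM in male SCNT-BLs, is below it.

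TPI1 showed the widest gap among enzymes detected in every SCNT-BL: the male fibroblasts had 679.6 FPKM and the female ones 638 FPKM, 47.7 and 88.1 times the mean of the SCNT-BLs. PFKP reached 70.4 FPKM in the male fibroblasts and 62.2 FPKM in the female ones, against at most 1.48 and 2.35 FPKM in SCNT-BLs of the same sex, and it made up 32.5% and 29.1% of the phosphofructokinase mRNA there. ALDOA, at 2713 and 2039 FPKM, was the most abundant of the 10 in fibroblasts, 15.9 and 9.26 times the SCNT-BL mean. ENO1 was 12.7 and 13.2 times, PGAM1 4.01 and 4.65 times and GAPDH 2.33 and 2.59 times as high in fibroblasts. GPI differed least, at 1402 and 1474 FPKM in fibroblasts, 1.04 and 1.44 times the SCNT-BL mean.

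LDHA was 354 FPKM in the male and 758 FPKM in the female fibroblasts, 6.19 and 41.2 times the SCNT-BL mean of the same sex. The male donor library thus had the lower LDHA of the pair. LDHB was 98.2 and 124 FPKM, 2.37 and 5.01 times the SCNT-BL mean. HK2 alone ran the other way, with 6.23 and 6.53 FPKM in fibroblasts and 5.43 and 5.36 times as much in SCNT-BLs. HK1 supplied 89.6% and 93.3% of the hexokinase mRNA of fibroblasts, and a median of 15.3% and 22.7% in male and female SCNT-BLs. The 9 fibroblast markers summed to 13170 and 8662 FPKM in the donor libraries and to 2.56 to 14.3 FPKM in the SCNT-BLs.

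**Figure D4:**
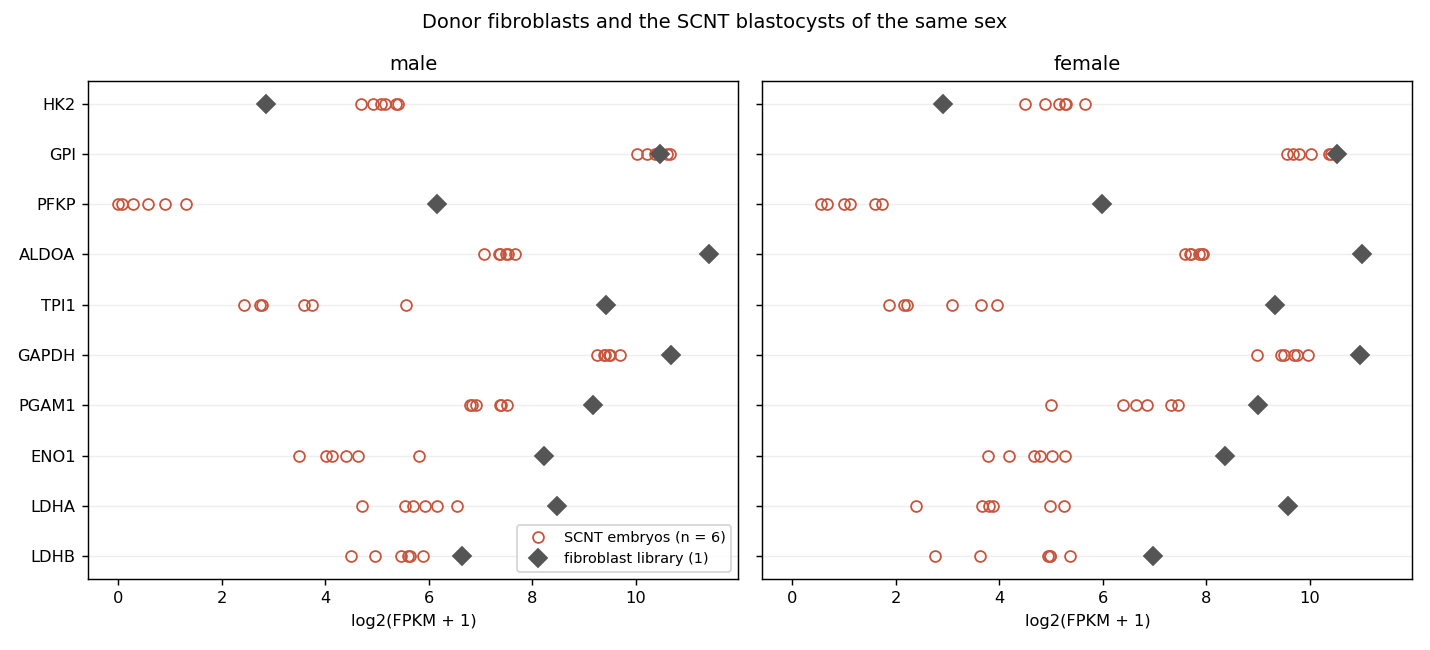
log2(FPKM + 1) of each enzyme in the 6 SCNT-BLs (open circles) and the donor fibroblast library (diamond) of the same sex. The diamond lies right of all circles for 8 enzymes in males and 9 in females, and left of them for HK2 in both.

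The 10 mRNAs did not vary as a block from embryo to embryo. With group means removed, Pearson correlations over the 35 blastocysts for the 45 pairs of enzymes ran from -0.48 to 0.65 (median 0.13), 4 were above 0.5 and 18 below 0. TPI1 and ENO1 had 0.65, ALDOA and GAPDH 0.61, HK2 and LDHB 0.60, and ENO1 and LDHA 0.56. HK2 and GAPDH had the lowest, -0.48. These values describe libraries that also share depth and amplification, and carry no test. By the same measure the genes most like the mean of the 10, among 5476 genes with a mean over 10 FPKM, were LAP3 at 0.80, FKBP4 at 0.75, TMED9 and C15H11orf58 at 0.74, and PNP at 0.74. The 10 genes lie on 8 chromosomes of the RefSeq assembly, a later build than that of the files, where TPI1 and GAPDH share a chromosome with 19 coding genes between them.

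**Figure D5:**
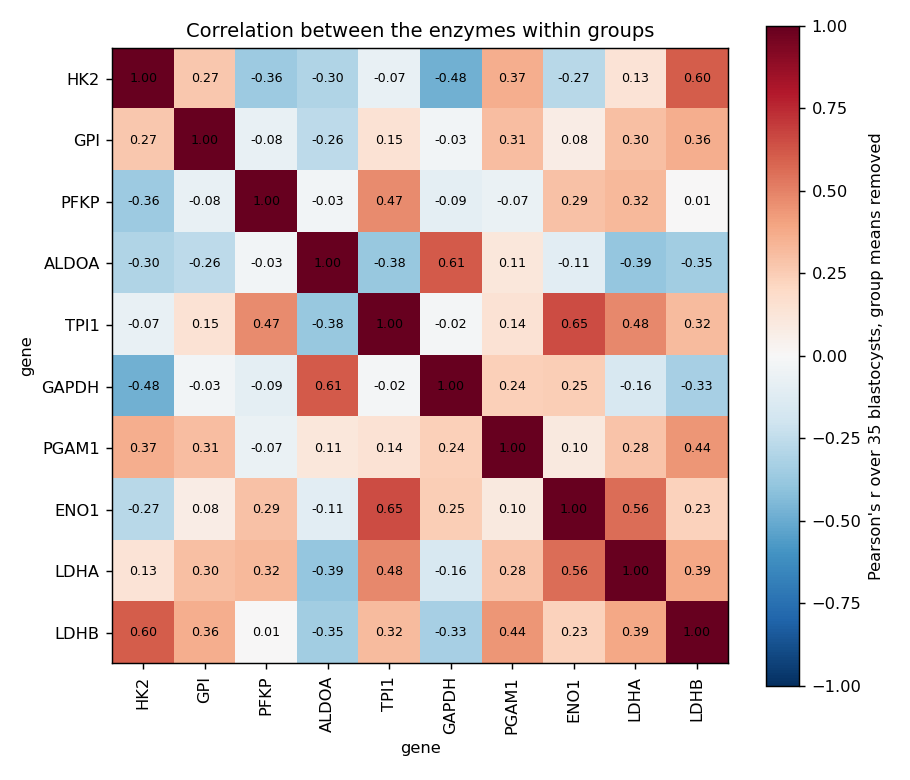
Pearson correlation between each pair of enzymes over 35 blastocysts, on log2(FPKM + 1) with the mean of each group removed, from blue (negative) to red (positive). The strongest is TPI1 with ENO1 at 0.65 and the lowest is HK2 with GAPDH at -0.48.

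The other genes of the pathway were taken as lists. Their calls are to be read beside the shares of all genes called. Those were 6.98% in male and 0.321% in female SCNT-BLs and 12.1% and 13.5% in male and female sham NT-BLs, each against IVF-BLs. For SCNT-BLs against sham NT-BLs they were 11.8% in males and 11.3% in females. Of 20 further enzymes of the same steps, 18 could be tested in males and 16 in females for SCNT-BLs against IVF-BLs. PFKL was the only one called, in males: it fell by 1.003 (SE 0.17, adjusted p = 0.0029, limma), with 44.3 to 66.4 FPKM in IVF-BLs (median 59.3) and 20.5 to 38.1 FPKM in SCNT-BLs (median 29.7), which did not overlap. Such a gap, with every male SCNT-BL below every male IVF-BL, was shown by 2.33% of all genes. None of the 16 was called in females, where 3 were at an unadjusted p under 0.05, all lower, beside 10.9% of all genes at that level and 5.98% lower. Against sham NT-BLs, PFKL was lower in SCNT-BLs of both sexes, by -1.77 in males and -1.35 in females, and the pyruvate kinase gene, listed as PKM2, was lower by -1.09 in males. In sham NT-BLs against IVF-BLs, ADPGK, an ADP-dependent glucokinase, rose by 1.07 in males and was the only one called of 18 in either sex. PGK1, the X-linked gene of phosphoglycerate kinase, was called in none of these comparisons, and its values are given by a choice made after they were seen. Its largest difference was that of female SCNT-BLs (6.10 to 29.3 FPKM, median 14.8) from female IVF-BLs (22.6 to 70.4 FPKM, median 35.8), at -1.40 (SE 0.34, adjusted p = 0.106, limma), and against female sham NT-BLs it was at -1.12 with an adjusted p of 0.05003 in limma.

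The pentose phosphate pathway, which draws glucose 6-phosphate away from glycolysis, showed 2 of 8 genes lower in male SCNT-BLs and none in females, beside 6.98% and 0.321% of all genes called. TKT, the transketolase, fell by 0.78, from a mean of 473 to 277 FPKM, and TALDO1, the transaldolase, fell by 1.35, from 31.6 to 12.9 FPKM. TALDO1 also fell in sham NT-BLs, by 1.66 in males and by 1.59 in females. PGLS, a lactonase of the oxidative branch, fell by 1.77 in male sham NT-BLs, and PGD, the phosphogluconate dehydrogenase, rose by 1.01 in female sham NT-BLs. Against sham NT-BLs, PGLS was higher in male SCNT-BLs by 2.55 and PGD lower in female SCNT-BLs by -1.005.

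Genes that bring pyruvate into mitochondria were called in both directions. In male SCNT-BLs 2 of 14 were lower, beside 6.98% of all genes called in either direction: PC, the pyruvate carboxylase, by -1.12 and DLD, a subunit of the pyruvate dehydrogenase complex, by -1.06. In females none of the 14 was, beside 0.321% of all genes called. PC was the only gene of the pathway lists called for a difference between the sexes (1.20, adjusted p = 0.0270, limma). Over all 15425 genes 1.91% were called for that difference in the SCNT-BL effect. Here too sex and donor population cannot be told apart. Female sham NT-BLs had 1 of 14 higher and 4 lower than IVF-BLs, beside 13.5% of all genes called and 6.47% called lower. PDHA1, the X-linked gene of a catalytic subunit of pyruvate dehydrogenase, rose by 2.09, from a mean of 62.3 to 278 FPKM, while its partner PDHB fell by 1.21, PDHX by 1.01, PC by 0.74 and the pyruvate carrier gene listed as BRP44L by 0.87. PDHA1 also rose in male sham NT-BLs, by 1.10, the only one of the 14 called there. Against sham NT-BLs, PDHB was higher in SCNT-BLs of both sexes, by 1.37 in males and 1.63 in females, and PDHA1 lower, by -0.72 and -1.26. Also called there were DLD (-0.96) and BRP44L (1.17) in males, and PDHX (1.032), the kinase PDK1 (-1.23) and the carrier gene BRP44 (-2.52) in females.

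Of 15 regulators of the flux, 14 could be tested in each comparison. The gene listed as C5H12orf5, an older name of the phosphatase TIGAR, rose by 1.26 in male SCNT-BLs against IVF-BLs. It was 1 of 14 called there, beside 6.98% of all genes, and none was called in female SCNT-BLs, beside 0.321%. The hypoxia factors were lower in male sham NT-BLs than in IVF-BLs: HIF1A fell by 1.20, EPAS1 by 2.21 and ARNT by 0.71. These were 3 of the 14, beside 12.1% of all genes called. In female sham NT-BLs HIF1A fell by 0.83 and PFKFB2, which sets the level of fructose 2,6-bisphosphate, by 1.36. These were 2 of 14, beside 13.5% of all genes called. Male SCNT-BLs had more HIF1A (1.12) and less PFKFB3 (-1.56) than male sham NT-BLs, beside 11.8% of all genes called. None was called for female SCNT-BLs against sham NT-BLs, beside 11.3%. Of 6 genes of gluconeogenesis, G6PC alone was called, higher by 0.98 in female sham NT-BLs, at a mean of 1.65 against 0.236 FPKM. Not all of these pathway calls stood when 1 embryo was left out. Among male sham NT-BLs against IVF-BLs, ADPGK was kept in 4 of 12 such fits and ARNT in 1 of 12. Among female sham NT-BLs against IVF-BLs, HIF1A was kept in 6 of 11, BRP44L in 3 of 11, and PFKFB2, PC and G6PC in 2 of 11 each. Among male SCNT-BLs against sham NT-BLs, DLD and BRP44L were kept in 7 of 12 each and PDHA1 in 3 of 12, and the difference of PC between the sexes was kept in 23 of 24. The other pathway calls named here were kept in every fit that left out 1 embryo, PFKL, TKT, TALDO1, PC, DLD and C5H12orf5 of male SCNT-BLs against IVF-BLs among them, although TKT was not called there with a fit shared by all origins (adjusted p = 0.0628, limma).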

How the data were processed

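The authors amplified poly-A RNA of single blastocysts by pico-profiling with random primers, sequenced 100 base paired ends and aligned them to UMD3.1 with TopHat. They deposited 1 table of FPKM from Cufflinks, with known transcripts only; Trim Galore and Cuffdiff are also listed in the submitters' processing notes. FPKM hold no counts, and the read numbers listed with the study were not used here, so no counting error is given.

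The members and lists were chosen with earlier results of these data known. Genes averaging over 0.1 FPKM across the libraries of a comparison were tested on log2(FPKM + 1) with limma 3.58.1 in R 4.3.3 (lmFit, eBayes with trend), 1 pair of groups at a time, 2-sided, with Benjamini-Hochberg adjustment over all genes and a threshold of 0.05. Differences between the sexes are interactions over 4 groups. Values are given for every member, for list genes that were called and for the 5 genes most correlated with the members. Tested on simulated data for SCNT against IVF, limma recovered 49% of 100 genes changed by 1 and 95% of 100 changed by 2 in males (14704 genes), and 37% and 83% in females (15254 genes). It also called 13 unchanged genes in males and 11 in females. Changed genes were drawn from the better expressed ones, and both groups were given the spread of the IVF-BLs. These shares therefore do not speak for low genes such as PFKP. Alternatives were a pseudocount of 0.1, a filter over 1 FPKM or none, median centring, a fit shared by all origins, the replicate number as a block, leaving out each embryo and, added after seeing the data, leaving out female SCNT-BL replicates 5 and 6.

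Marker lists covered blood, cumulus, fibroblasts, primitive endoderm, trophectoderm, and the inner cell mass with the epiblast. Blood markers summed to at most 3.81 FPKM in an embryo. Exact zeros are given as listed at 0.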

Additional observations from a re-analysis of the deposited data

Results flagged for a closer look

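In 10 of 60 sets of 5 or 6 embryos (10 enzymes in 6 groups), 1 embryo lay far from the others of its group by Dixon's test on FPKM, and chance alone flags about 1 in 20 sets of normal values. All 10 were on the high side, and on log2(FPKM + 1) only 2 of them, PFKP of female sham NT-BLs and LDHB of male IVF-BLs, remained. Female sham NT-BL replicate 5 was the high embryo in 3 of them, with 95.6 FPKM of LDHA, 45.9 FPKM of LDHB and 5.27 FPKM of PFKP. Male sham NT-BL replicate 2 was high for LDHA, at 168 FPKM, and for ENO1, at 36.6 FPKM, and male sham NT-BL replicate 1 for ALDOA, at 461 FPKM. Male SCNT-BL replicate 4 was high for TPI1, at 46.2 FPKM, and for ENO1, at 55.1 FPKM. LDHB was high in male IVF-BL replicate 5, at 49.6 FPKM, and in female IVF-BL replicate 2, at 79.1 FPKM. Separately, the effect of nuclear transfer on LDHA differed between male and female embryos by a test of the difference itself, at -2.27 on the log2 scale. Sex and donor population cannot be told apart there.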

How the results depend on the processing

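Of the members' differences under settings other than leaving out 1 embryo, 487 kept their direction and their side of the threshold, 8 lost a call, 6 gained one and 8 changed sign, none of the last called. Sign changes were PFKP of male SCNT-BLs against IVF-BLs (0.025 with a pseudocount of 0.1), GPI of female sham NT-BLs against IVF-BLs (0.056 with median centring), PGAM1 (0.12) and GAPDH (0.11) of female SCNT-BLs against sham NT-BLs with the replicate block, and, without female SCNT-BL replicates 5 and 6, PGAM1 of SCNT-BLs against IVF-BLs (0.13), PGAM1 (0.25) and GAPDH (0.094) against sham NT-BLs, and PFKP in the difference between the sexes (0.075).

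Replicate numbers did not pair the samples: same-numbered embryos correlated at -0.239 to 0.0767, with 0 pairs over 0.1. With the replicate block, members called went from 1 to 0 for male SCNT-BLs (LDHA, adjusted p = 0.0517, limma) and for male sham NT-BLs (PGAM1, 0.0670) against IVF-BLs. For female sham NT-BLs against IVF-BLs it took the call of LDHB (0.0831) and gave one to GAPDH (0.0470), and for pathway and marker genes it took, among others, those of PDHX in female SCNT-BLs against sham NT-BLs (0.0714) and GATA3 in male SCNT-BLs (0.0875). Genes called went from 1040 to 652 (male SCNT-BLs), 49 to 20 (female SCNT-BLs) and 2061 to 1306 (female sham NT-BLs) against IVF-BLs, and from 1706 to 1060 for female SCNT-BLs against sham NT-BLs. With a filter over 1 FPKM or with none, 2 members were called for male SCNT-BLs against IVF-BLs, and 75 and 1 genes for female ones. With a fit shared by all origins, 0 members were called for male SCNT-BLs against IVF-BLs and 0 for the difference between the sexes. Without female SCNT-BL replicates 5 and 6, 1 member was called for female SCNT-BLs against sham NT-BLs, and 0 members and 181 genes (295 with all) for the difference between the sexes.

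Leaving out 1 embryo at a time, genes called ran from 709 to 970 (male) and 1 to 57 (female) for SCNT-BLs against IVF-BLs, 1411 to 1952 and 1525 to 2072 for sham NT-BLs against IVF-BLs, 1382 to 1778 and 1176 to 1725 for SCNT-BLs against sham NT-BLs, and 147 to 311 and 110 to 238 for the differences between the sexes in the SCNT-BL and sham NT-BL effects. The lowest counts were without female SCNT-BL replicate 3 (1), male SCNT-BL replicate 1 (147) and female sham NT-BL replicate 4 (110). Members called ran from 1 to 2 and 0 to 0, 0 to 2 and 1 to 4, 0 to 1 and 0 to 1, and 0 to 1 and 0 to 0 in the same order. Signs that turned were all of uncalled members. For SCNT-BLs against IVF-BLs in males they were PFKP (-0.35 to 0.16) and TPI1 (-0.66 to 0.36). For sham NT-BLs against IVF-BLs in females they were GPI (-0.057 to 0.018), PGAM1 (-0.30 to 0.11) and LDHA (-0.14 without sham NT-BL replicate 5, up to 0.37). For SCNT-BLs against sham NT-BLs they were HK2 (-0.24 to 0.12), ALDOA (-0.37 to 0.0037) and GAPDH (-0.11 to 0.32) in males, and PFKP (-0.0034 to 0.56), ALDOA (-0.20 to 0.072), PGAM1 (-0.44 to 0.12) and GAPDH (-0.17 to 0.14) in females. For the differences between the sexes they were PFKP (-0.38 to 0.12) in SCNT-BLs and ALDOA (-0.093 to 0.28) in sham NT-BLs. The cause was not tested. Low values such as those of PFKP and TPI1 rest on few fragments, which limits their precision.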
